A study of Homo sapiens with 6 samples.

Results

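The integrin and laminin genes were taken from the count table by their symbols: every row named ITGA or ITGB for an integrin chain, or LAMA, LAMB or LAMC for a laminin chain, was a member. The rule gave 38 genes of the 56303 rows in the table. There were 26 integrin genes, of which 18 encode alpha chains and 8 encode beta chains, and 12 laminin genes. RNA-seq had been performed on SW480 cells, a human colon adenocarcinoma line, to find the splicing events that depend on RBM39, an RNA-binding splicing factor. The control group (shCtrl) carried a lentiviral non-silencing short hairpin RNA and is labelled WT in genotype, and the other group (shRBM39) carried a hairpin against RBM39 and is labelled RBM39 knockdown. Both groups were grown in medium with fetal bovine serum, and according to the methods the lines were stable clones selected with puromycin. The number of clones behind a group and the hairpin used are not given in the sources used here. Each group had 3 libraries, and the methods speak of replicate experiments without saying whether these were separate cultures, so the p-values measure the spread between these libraries only.

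Integrins are receptors made of 1 alpha and 1 beta chain that span the cell membrane and tie the cell to the matrix outside it. Laminins are trimers of an alpha, a beta and a gamma chain and are the main adhesive proteins of the basement membrane, the sheet on which epithelial cells rest. In the gut epithelium the receptor of ITGA6 and ITGB4 holds cells to laminin through hemidesmosomes, anchoring points linked to keratin filaments, whereas receptors built on ITGB1 act through focal adhesions linked to actin.

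Total counts ran from 18042924 to 20428901 per library. RBM39, the targeted gene, had 441, 448 and 435 CPM (counts scaled to library size with TMM factors) in shCtrl and 266, 276 and 292 CPM in shRBM39, so that it changed by -0.67 on the log2 scale (standard error, SE, 0.04, edgeR adjusted p 1.24e-16). Epithelial markers were abundant, with a summed level of 11721 to 12549 CPM over 8 genes in shCtrl and 14775 to 15349 CPM in shRBM39, and 7 of the 8 were at 1 CPM or more. Most of that sum was KRT8, at 6924 ± 233 CPM in shCtrl and 9309 ± 190 CPM in shRBM39 (SD, n = 3), and the list did not move one way. CDX2, an intestinal transcription factor gene, fell from 21.7 ± 0.616 to 4.95 ± 0.529 CPM (SD, n = 3; log2 fold change -2.13, edgeR adjusted p 2.44e-20), and CDH1 (-0.39) and VIL1 (-0.09) were also called lower. KRT8 (0.43), KRT18 (0.24) and KRT20 (1.82, at means of 0.310 CPM in shCtrl and 1.12 CPM in shRBM39) were called higher. EPCAM and KRT19 were not called. Markers of other cell types were low: 7 leukocyte genes summed to 16.9 to 18.6 CPM in shCtrl and 18.7 to 20.6 CPM in shRBM39, with PTPRC at 0 in every library. CD68 made up most of the leukocyte sum, and LYZ rose from 1.205 to 2.45 CPM. The sum over 4 endothelial genes was 3.47 to 4.58 CPM in shCtrl and 6.45 to 7.96 CPM in shRBM39, with KDR at 0, and over 5 fibroblast genes it was 6.997 to 7.21 and 9.60 to 12.5 CPM. All 3 megakaryocyte markers were at 0 counts. The part of these differences in the results below was not tested, and in bulk RNA fewer cells of a type and less RNA per cell cannot be told apart.

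Next, the levels of the members were compared per length, as RPKM (reads scaled to the length of the gene model and to the size of the library). In shCtrl, 19 of the 38 genes reached a mean of 1 RPKM and 13 stayed under 0.1 RPKM in both groups. The laminin receptor chains led: ITGA6 had 52.5 ± 1.82 RPKM, ITGB1 46.7 ± 1.54 RPKM and ITGB4 37.0 ± 0.989 RPKM in shCtrl (SD, n = 3). These 3 genes took 50.2% of all counts of the members in shCtrl. The laminin chains followed, with LAMB3 at 21.3 ± 0.388, LAMB1 at 16.5 ± 0.374, LAMC1 at 13.4 ± 0.204, LAMA5 at 9.87 ± 0.154 and LAMB2 at 8.96 ± 0.207 RPKM. Then came ITGB5 at 8.45 ± 0.408, ITGA5 at 5.85 ± 0.172 and LAMA3 at 3.92 ± 0.258 RPKM. Among the genes at 1 RPKM or more that are named here, neighbours in the order had separate values in shCtrl except LAMB2 and ITGB5, LAMA3 and ITGA7, ITGA7 and ITGB7, and ITGA2 and LAMA2, whose libraries overlapped. In shRBM39 the first 3 genes kept their places, at 41.4, 31.1 and 23.0 RPKM. ITGA5 went from rank 10 to rank 13, ITGAE from rank 15 to rank 11, and LAMB3 and LAMB1 exchanged ranks 4 and 5.

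**Figure D1:**
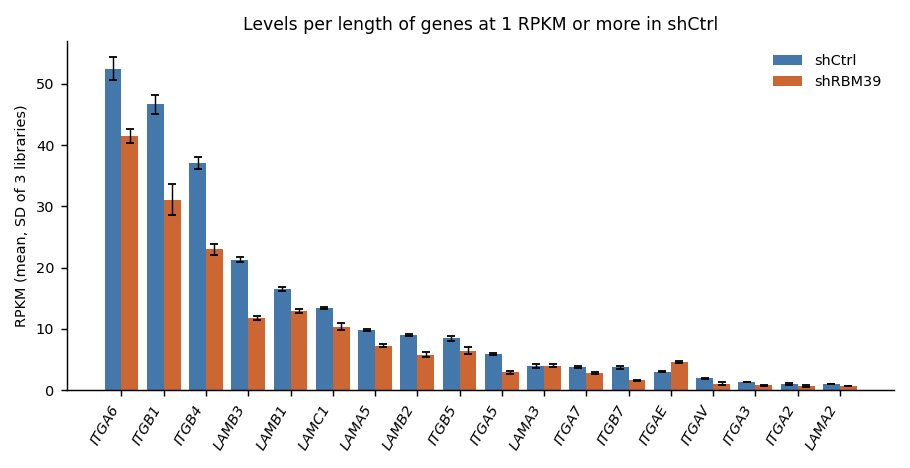
Mean RPKM (vertical axis, linear, from 0) of 18 of the 19 integrin and laminin genes at 1 RPKM or more in shCtrl, in order of their shCtrl level; blue bars are shCtrl, orange bars shRBM39, and error bars are the SD of 3 libraries. ITGA6, ITGB1 and ITGB4 stand above the other genes in both groups, and ITGAE is higher in shRBM39 by more than its error bars.

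The members as a group were then compared between shRBM39 and shCtrl. All counts together, the 38 genes took 0.177%, 0.172% and 0.172% of the counts of the shCtrl libraries and 0.125%, 0.128% and 0.123% of those of the shRBM39 libraries, with no overlap. Of the 38 genes, 25 had enough counts to be tested with edgeR's quasi-likelihood test. With a gene called at a Benjamini-Hochberg adjusted p under 0.05, 19 members were lower in shRBM39, 3 were higher and 3 were not called. Of all 18243 genes tested, 29.9% were called lower and 29.2% higher, 59.1% in all, so a call by itself was common in this comparison. The median log2 fold change of the 25 members was -0.45, against -0.01 over all genes tested. For 21 of the 25 members the libraries of shCtrl and shRBM39 held separate ranges, as they did for 63.3% of all genes tested. Of these members 20 had the lower range in shRBM39, as had 32.3% of all genes. Calls with a change of at least 2-fold downward were made for 3 members (ITGB7, ITGA9 and LAMC3) and for 4.16% of all genes tested. Of the 20 members whose mean reached 5 CPM, 17 were lower and 3 higher, against 32.9% lower among the 12058 genes at that level. When libraries were scaled by their totals alone, the median of all genes moved from -0.01 to -0.14 and the share of genes called lower from 29.9% to 40.4%. Under that scaling 20 of the 25 members were called lower and 1 higher, with a median of -0.57.

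Most integrin and laminin genes have long transcripts, and the fold change of all genes varied with length. Of the 24 members at 1 CPM or more, 10 were in the third quartile of merged exon length (4194 to 6710 bases) and 14 in the fourth, which starts at 6713 bases. The share of genes called lower was 22.7%, 27.0%, 33.1% and 42.3% from the first to the fourth quartile. When the counts of each library were corrected for their dependence on GC content and length, again 19 members were called lower and 3 higher. That correction left 29.7% of all genes called lower and 59.4% called in either direction. The median of the members was -0.35 after the correction.

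**Figure D2:**
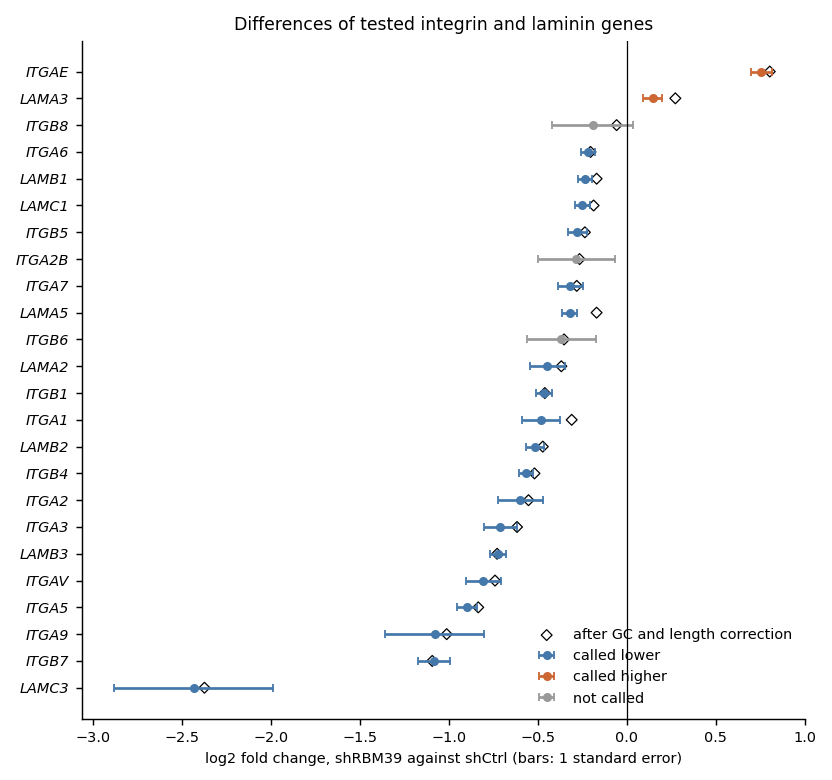
Log2 fold change (horizontal axis, shRBM39 against shCtrl) of 24 of the 25 tested genes, with bars of 1 standard error; blue points were called lower, orange higher and grey not called, and open diamonds give the value after the GC and length correction. Of the genes plotted, ITGAE and LAMA3 lie to the right of 0, and the value of LAMC3, at -2.43, has the widest bar.

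The 5 genes of the laminin-binding integrins (ITGA3, ITGA6, ITGA7, ITGB1 and ITGB4) were all called lower. ITGA6 (chromosome 2, 172427354 to 172506282 on GRCh38), the alpha chain that gives laminin binding to both hemidesmosomes and focal contacts, had 346, 321 and 320 CPM in shCtrl and 288, 286 and 274 CPM in shRBM39. ITGB4 (chromosome 17, 75721328 to 75757818), its partner in hemidesmosomes with a long cytoplasmic tail, had 250, 234 and 237 CPM in shCtrl and 164, 168 and 154 CPM in shRBM39. Every shRBM39 library was below every shCtrl library for both chains. ITGA6 fell by 14.1% (log2 fold change -0.22, SE 0.04, edgeR adjusted p 9.49e-06) and ITGB4 fell by 32.5% (-0.57, SE 0.04, edgeR adjusted p 2.09e-14). The balance of the chains was examined next. The counts of ITGB4 divided by those of ITGA6, a ratio within a library that no scaling can change, were 0.724, 0.727 and 0.742 in shCtrl and 0.570, 0.586 and 0.564 in shRBM39. All 3 ratios of shRBM39 were below those of shCtrl, and the exact permutation test gave a two-sided p of 0.1, the smallest that 3 against 3 libraries allow.

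ITGB4 also had a record in the deposited splicing table. This table lists 1582 of the 31743 alternative splicing events that rMATS had tested, all with a mean difference in inclusion level of at least 0.1, and it names its groups only group 1 and group 2, with no key to which is the knockdown. Those names are kept here. An inclusion level is the share of transcripts that hold an exon, estimated from reads on the exon and its junctions against reads that skip it and corrected for the length each form offers to reads. Of the 38 members, 3 genes had records, ITGB4, ITGB7 (with 2) and LAMB1, 4 in all, and ITGA6 had none among those listed. All 4 were skipped exons. An edgeR fit that set inclusion reads against skipping reads called 3 of the 4 records, against 37.3% of the 1582 listed records. The listed events were those that the authors' own comparison of these same reads had counted as significant. The edgeR p-values of the records, here and below, are therefore from a list already chosen for its differences. They describe the records and are not independent support for a difference.

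The ITGB4 record concerned exon 19 of the 40 exons of the canonical transcript, an exon of 34 coding bases at chr17:75739672-75739705 on the plus strand. Its flanking exons in the record were exons 17 and 20, so that the skipping form lacks exon 18 (107 bases, chr17:75737538-75737644) as well as exon 19. Together these exons hold 141 bases, and the form without them keeps the reading frame with 47 codons fewer than the 1822 of the full form. The inclusion form of the record adds only exon 19 between exons 17 and 20, so it is not the full form. The inclusion levels below thus concern exon 19, and the inclusion of exon 18 was not measured. Exon 18 encodes the membrane-spanning segment of the beta chain, and 14 of its 35 whole codons are for leucine. Both exons are printed here because they are what the skipping form lacks, with exon bases in capitals and 30 bases of intron on each side in lower case, from GRCh38, 5′ to 3′.
ITGB4 exon 18 (chr17:75737508-75737674, plus strand): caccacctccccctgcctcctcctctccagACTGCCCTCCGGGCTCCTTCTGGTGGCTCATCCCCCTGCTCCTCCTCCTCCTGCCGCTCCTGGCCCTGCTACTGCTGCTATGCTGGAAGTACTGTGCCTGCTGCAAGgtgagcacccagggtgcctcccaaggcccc
ITGB4 exon 19 (chr17:75739642-75739735, plus strand): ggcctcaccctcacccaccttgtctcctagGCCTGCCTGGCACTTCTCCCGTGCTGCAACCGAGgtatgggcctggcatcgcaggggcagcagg
Both exons are preceded by AG and followed by GT in the intron, the letters found at most splice sites. In group 1 the libraries had 24, 30 and 27 inclusion reads and 2, 5 and 8 skipping reads, which gave inclusion levels of 0.905, 0.826 and 0.728. In group 2 they had 51, 55 and 50 inclusion reads and 0, 0 and 1 skipping reads, for levels of 1, 1 and 0.975. The levels of the groups did not overlap, as in 57.5% of the listed records. The mean level of group 1 minus that of group 2 was -0.172, with an edgeR adjusted p of 0.000102 over the listed records. This record was also called with the fit limited to the 554 records with at least 20 reads in every library, of which 86.5% were called.

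The other laminin receptors turn on ITGB1, the common partner of many alpha chains. ITGB1 (chromosome 10, 32900319 to 33005792) had 282, 260 and 266 CPM in shCtrl and 181, 192 and 212 CPM in shRBM39, without overlap. ITGB1 fell by 27.5% (log2 fold change -0.46, SE 0.04, edgeR adjusted p 4.72e-11). ITGA3, which binds laminins of the epithelial basement membrane, had 12.3, 13.0 and 12.6 CPM in shCtrl and 8.17, 7.96 and 7.07 CPM in shRBM39. ITGA7, best known from the laminin receptor of muscle, had 24.0, 22.0 and 23.3 CPM in shCtrl and 19.8, 18.9 and 16.9 CPM in shRBM39. Both alpha chains were lower in every shRBM39 library. The log2 fold change was -0.71 for ITGA3 (SE 0.09, edgeR adjusted p 2.60e-08) and -0.32 for ITGA7 (SE 0.07, edgeR adjusted p 0.000173). Divided by the counts of ITGA6 in the same library, ITGB1 gave mean ratios of 0.818 ± 0.0107 in shCtrl and 0.692 ± 0.0756 in shRBM39 (SD, n = 3), which did not overlap.

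The collagen receptors ITGA1 and ITGA2, which also pair with ITGB1, were low in these cells and lower still in shRBM39. ITGA1 had 8.44, 9.80 and 9.06 CPM in shCtrl and 7.04, 7.15 and 5.42 CPM in shRBM39, a log2 fold change of -0.48 (SE 0.11, edgeR adjusted p 0.000281), or -0.31 after the GC and length correction. ITGA2, the collagen receptor of epithelia and platelets, had 6.75, 8.29 and 8.17 CPM in shCtrl and 5.16, 6.22 and 4.08 CPM in shRBM39, a log2 fold change of -0.60 (SE 0.13, edgeR adjusted p 0.000124). Neither gene had overlapping groups. ITGA1 shares 475 exon bases on the same strand with PELO, which had a mean of 301 counts against 155 for ITGA1 and was not called (-0.03), so the split of reads between these genes is uncertain. The other collagen-binding chains, ITGA10 and ITGA11, had at most 12 and 2 counts in a library and were not tested.

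Of 8 chains of integrins that bind fibronectin and other ligands with an Arg-Gly-Asp motif, 6 were tested, of which 3 were lower and 3 not called. ITGA5 (chromosome 12, 54395261 to 54419460), which with ITGB1 forms the main fibronectin receptor, had 41.5, 42.6 and 43.4 CPM in shCtrl and 21.2, 24.3 and 23.1 CPM in shRBM39. It thus fell by 46.3% (log2 fold change -0.90, SE 0.06, edgeR adjusted p 1.68e-15). Relative to the counts of its partner ITGB1 in the same library, ITGA5 was at 0.158 ± 0.00940 in shCtrl and 0.118 ± 0.00884 in shRBM39 (SD, n = 3), again without overlap. FN1, which encodes the ligand fibronectin, fell from 97.9 ± 5.31 to 43.9 ± 1.61 CPM (SD, n = 3), with a log2 fold change of -1.16 (SE 0.05, edgeR adjusted p 1.35e-20). ITGAV, which pairs with several beta chains, had 16.3, 15.1 and 14.9 CPM in shCtrl and 10.8, 7.26 and 8.21 CPM in shRBM39. ITGB5, one of its partners and a receptor for vitronectin, had 50.7, 51.1 and 54.9 CPM in shCtrl and 40.6, 47.6 and 41.3 CPM in shRBM39. Both fell, ITGAV by 0.81 (SE 0.10, edgeR adjusted p 1.03e-08) and ITGB5 by 0.28 (SE 0.05, edgeR adjusted p 3.66e-05) on the log2 scale. The remaining members of this group were scarce and not called. ITGB6, an epithelial partner of ITGAV, ranged from 1.98 to 2.76 CPM in shCtrl and from 1.55 to 1.99 CPM in shRBM39 (-0.37, edgeR adjusted p 0.104). ITGB8, another partner, ranged from 1.59 to 1.77 CPM and from 1.02 to 1.70 CPM (-0.19, edgeR adjusted p 0.48). ITGA2B, the platelet chain, ranged from 1.59 to 1.92 CPM and from 1.29 to 1.53 CPM (-0.28, edgeR adjusted p 0.262). ITGB3, its partner on platelets, had at most 2 counts in a library.

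**Figure D3:**
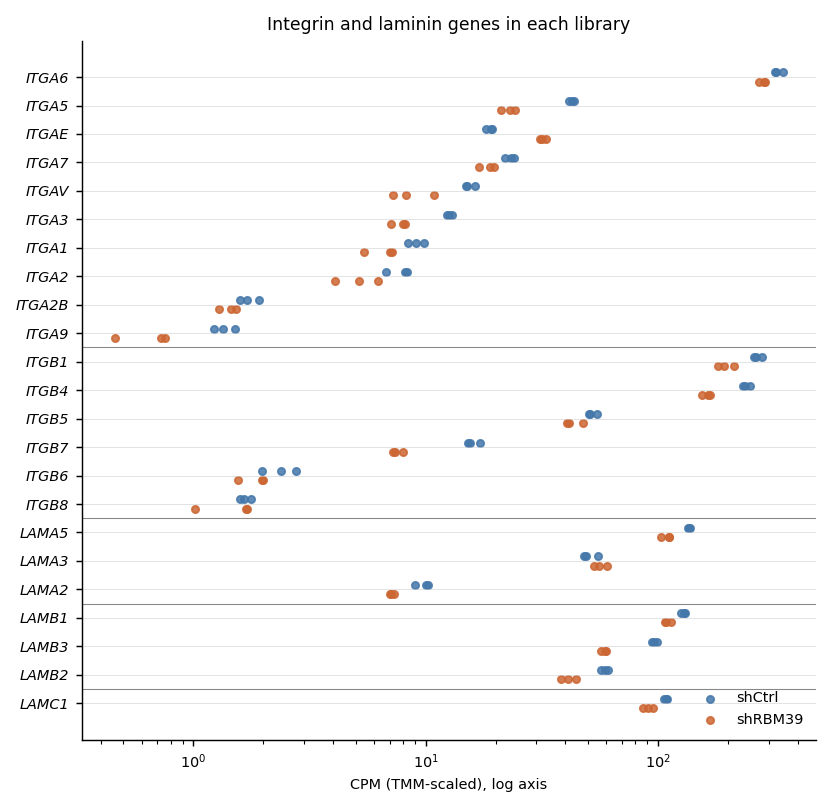
TMM-scaled CPM (horizontal axis, logarithmic) of 23 of the 24 genes whose mean over the 6 libraries reached 1 CPM, grouped into integrin alpha and beta chains and laminin alpha, beta and gamma chains; each point is a library, blue for shCtrl and orange for shRBM39. The orange points lie to the left of the blue ones for most genes, to the right for ITGAE, and among them for LAMA3.

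The chains of the integrin by which lymphocytes inside the epithelium hold to E-cadherin, ITGAE and ITGB7, went in opposite directions. ITGAE (chromosome 17, 3714628 to 3801243), the alpha chain, had 19.4, 19.2 and 18.3 CPM in shCtrl and 32.9, 31.1 and 31.8 CPM in shRBM39. This was the largest increase among the tested members, 68.8% (log2 fold change 0.76, SE 0.06, edgeR adjusted p 5.45e-13). ITGB7 (chromosome 12, 53191318 to 53207307), the beta chain, had 17.2, 15.5 and 15.3 CPM in shCtrl and 7.35, 7.26 and 7.95 CPM in shRBM39. It fell by 52.8% (log2 fold change -1.08, SE 0.09, edgeR adjusted p 7.64e-13). The counts of ITGAE divided by those of ITGB7 were 1.13, 1.24 and 1.197 in the shCtrl libraries and 4.47, 4.29 and 4.0 in the shRBM39 libraries, with an exact two-sided permutation p of 0.1. The other alpha partner of ITGB7, ITGA4, had 0 counts in all 6 libraries. Of the leukocyte markers, PTPRC was at 0, CD68 had means of 15.7 CPM in shCtrl and 16.7 CPM in shRBM39 and was not called, and LYZ was called higher (log2 fold change 1.03, edgeR adjusted p 0.000101). CDH1, which encodes the ligand E-cadherin, changed by -0.39 (SE 0.04, edgeR adjusted p 1.03e-09). Both integrin genes overlap another gene on the opposite strand, and the strand setting of the counting is not given. ITGAE shares 427 exon bases with GSG2, which changed by 0.33 (23.2 to 29.2 CPM), and ITGB7 shares 1886 exon bases with ZNF740, which changed by -0.15 (80.7 to 72.9 CPM). Without strand, reads in the shared bases could belong to either gene.

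ITGB7 had 2 records in the splicing table. Exon 13 of its 16 exons, 220 coding bases at chr12:53192691-53192910 on the minus strand, had the largest difference in inclusion level among the member records. It is printed because it carries this difference, on the strand of the gene, with exon bases in capitals and 30 intron bases on each side in lower case (GRCh38).
ITGB7 exon 13 (chr12:53192661-53192940, minus strand): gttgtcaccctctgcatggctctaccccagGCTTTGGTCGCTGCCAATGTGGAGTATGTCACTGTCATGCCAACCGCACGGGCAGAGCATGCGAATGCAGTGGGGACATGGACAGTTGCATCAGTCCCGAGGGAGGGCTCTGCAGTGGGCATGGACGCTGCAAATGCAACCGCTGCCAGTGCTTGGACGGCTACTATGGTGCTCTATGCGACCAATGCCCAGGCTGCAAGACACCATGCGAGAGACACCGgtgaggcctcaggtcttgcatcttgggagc
In group 1 the libraries had 12, 16 and 14 inclusion reads and 3, 4 and 9 skipping reads, for levels of 0.598, 0.598 and 0.366. In group 2 there were 46, 48 and 38 inclusion reads and 0, 1 and 1 skipping reads, for levels of 1, 0.947 and 0.934. Levels in group 2 were near 1, and the mean of group 1 minus that of group 2 was -0.440, with an edgeR adjusted p of 1.44e-05. The length correction matters here: levels from the read numbers alone differed by -0.248. Skipping exon 13 shifts the reading frame. In the canonical transcript the first stop codon then comes at codon 602 in place of 799, 27 codons after the new junction and 290 bases before the last junction. The other record concerned exon 2, 123 bases at chr12:53201072-53201194 that hold no coding base of the canonical transcript. Inclusion reads numbered 10, 4 and 3 in group 1 and 17, 11 and 5 in group 2, and skipping reads 0, 0 and 0 against 1, 3 and 1. Group 1 thus had a level of 1 in each library and group 2 had 0.897, 0.653 and 0.720, opposite in direction to exon 13, but with as few as 3 reads in a library the record was not called (edgeR adjusted p 0.134).

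**Figure D4:**
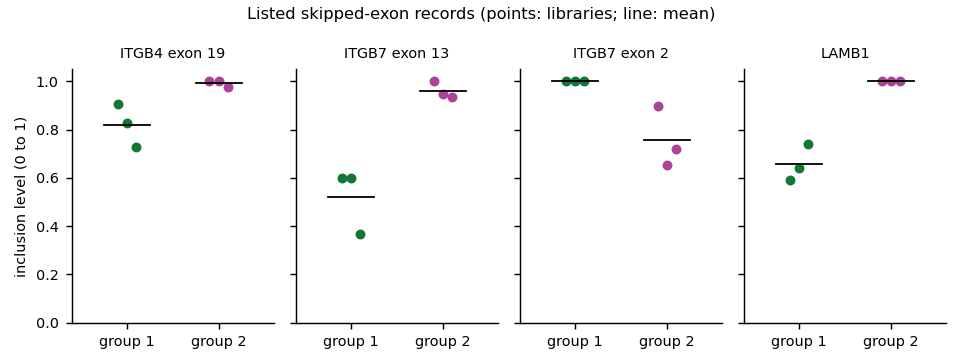
Inclusion level (vertical axis, 0 to 1) of the 4 listed skipped exons of ITGB4, ITGB7 and LAMB1; each point is a library, green for group 1 and purple for group 2 of the splicing table, and lines are means. Exon 19 of ITGB4, exon 13 of ITGB7 and the LAMB1 exon are lower in group 1 and exon 2 of ITGB7 is lower in group 2.

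The laminin genes were examined by the trimers they can form. LAMA5, LAMB1, LAMB2 and LAMC1 encode the chains of the widespread epithelial laminins with an alpha 5 chain, and all 4 were lower in shRBM39. LAMA5 (chromosome 20, 62307955 to 62367312) had 136, 138 and 134 CPM in shCtrl and 112, 111 and 104 CPM in shRBM39. LAMB1 (chromosome 7, 107923799 to 108003255) had 129, 131 and 126 CPM in shCtrl and 107, 114 and 108 CPM in shRBM39. LAMC1, the gamma chain of most laminins, had 108, 109 and 107 CPM in shCtrl and 91.0, 95.6 and 86.1 CPM in shRBM39. The libraries of the groups did not overlap for any of these 3 chains, and their log2 fold changes lay close together, at -0.32, -0.23 and -0.25 (SE 0.04 each, edgeR adjusted p 1.74e-08, 5.16e-06 and 5.10e-06). After the GC and length correction they were -0.17, -0.17 and -0.19. LAMB2, the beta chain that can take the place of LAMB1, had 60.7, 57.1 and 59.3 CPM in shCtrl and 41.2, 44.5 and 38.3 CPM in shRBM39, a log2 fold change of -0.52 (SE 0.05, edgeR adjusted p 9.35e-11). LAMB1 relative to LAMC1 gave count ratios of 1.19 ± 0.00936 in shCtrl and 1.21 ± 0.0428 in shRBM39 (SD, n = 3), which overlapped (exact two-sided permutation p 0.9). LAMA5 relative to LAMC1 was 1.26 ± 0.00137 in shCtrl and 1.199 ± 0.0352 in shRBM39 (SD, n = 3), lower without overlap (exact two-sided permutation p 0.1). Count ratios carry no GC and length correction, and after it LAMA5 (-0.17) had not fallen more than LAMC1 (-0.19). LAMB2 relative to LAMB1 went from 0.458 ± 0.0202 to 0.376 ± 0.0202 (SD, n = 3), without overlap. LAMA5 shares 244 exon bases on the opposite strand with ADRM1, which rose by 0.56, and 118 with LAMA5-AS1, which fell by 0.59. LAMB1 shares 70 with DLD, which rose by 0.36.

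The LAMB1 record in the splicing table was a skipped exon read at low depth. Group 1 had 8, 5 and 16 inclusion reads with 2, 1 and 2 skipping reads, and group 2 had 13, 16 and 15 inclusion reads with no skipping read. Group 1 had levels of 0.590, 0.642 and 0.742, and each library of group 2 had a level of 1. The mean difference of -0.342 was called (edgeR adjusted p 0.0317), but it rests on 5 skipping reads in all, and the call was lost whenever any library was left out (edgeR adjusted p 0.0508 to 0.103). The difference of levels taken from read numbers alone was -0.159.

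LAMA3 and LAMB3 encode the alpha chain and the beta chain of the laminin that hemidesmosomes bind, and here the chains moved apart. LAMB3 (chromosome 1, 209614870 to 209652466) had 99.5, 96.4 and 94.7 CPM in shCtrl and 56.7, 59.96 and 59.3 CPM in shRBM39, so that it fell by 39.5% (log2 fold change -0.72, SE 0.04, edgeR adjusted p 3.28e-16). LAMA3 had 55.2, 49.1 and 48.3 CPM in shCtrl and 53.1, 60.1 and 55.8 CPM in shRBM39. For LAMA3 the groups overlapped. It was called higher by 0.15 on the log2 scale (SE 0.05, edgeR adjusted p 0.0167), but this small difference lost the call in several alternatives. With library totals alone LAMA3 changed by 0.02 (edgeR adjusted p 0.726), and after the GC and length correction by 0.27 (edgeR adjusted p 4.57e-05). It was called without shCtrl replicate 1 (0.21) and was not called without shCtrl replicate 2 (0.12), without shCtrl replicate 3 (0.11) or without shRBM39 replicate 2 (0.10). The ratio within libraries does not depend on scaling. Counts of LAMB3 divided by those of LAMA3 were 1.80, 1.96 and 1.96 in shCtrl and 1.07, 0.998 and 1.06 in shRBM39. The ratios did not overlap between groups, with an exact two-sided permutation p of 0.1. Per length, LAMB3 was 5.42 times LAMA3 in shCtrl and 2.96 times LAMA3 in shRBM39. These values use the merged exon length of each gene, 4749 bases for LAMB3 and 13522 for LAMA3. Which transcript forms the cells made was not measured, so they are not ratios of chains.

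**Figure D5:**
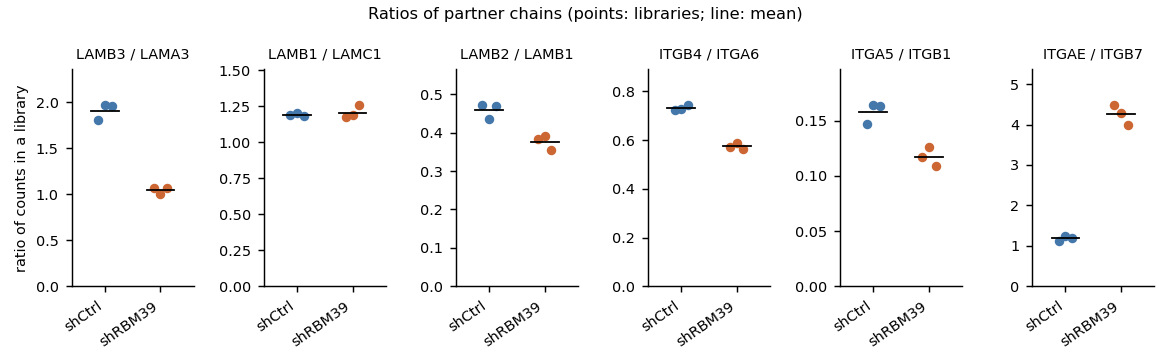
Ratio of the counts of partner chains within each library (vertical axes, from 0, each with its own scale); points are libraries, blue for shCtrl and orange for shRBM39, and lines are means of 3 libraries. LAMB3 is lower relative to LAMA3, LAMB2 to LAMB1, ITGB4 to ITGA6 and ITGA5 to ITGB1 in shRBM39, ITGAE is higher relative to ITGB7, and the ratio of LAMB1 to LAMC1 overlaps between groups.

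The remaining laminin chains were scarce. LAMA2, the alpha chain best known from muscle basement membrane, had 10.2, 8.997 and 9.99 CPM in shCtrl and 7.09, 7.03 and 7.28 CPM in shRBM39, a log2 fold change of -0.45 (SE 0.10, edgeR adjusted p 0.000181). LAMC3 had 24, 12 and 25 counts in the shCtrl libraries and 2, 2 and 6 counts in the shRBM39 libraries. Its log2 fold change of -2.43 was the lowest among the members, with a wide SE of 0.44 (edgeR adjusted p 1.60e-05). LAMA1, the alpha chain of embryonic laminin, had 5, 9 and 9 counts in shCtrl and 26, 21 and 9 counts in shRBM39 and did not pass the filter on low counts. Without the filter its log2 fold change was 1.42 (edgeR adjusted p 0.000256), with 9 counts in libraries of both groups. LAMB4 had at most 4 counts in a library and LAMA4 had 0 in all.

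Among the other integrin alpha chains, ITGA9, a receptor for tenascin and other ligands with ITGB1, had 1.34, 1.51 and 1.23 CPM in shCtrl and 0.459, 0.755 and 0.723 CPM in shRBM39. It was called lower (log2 fold change -1.08, SE 0.28, edgeR adjusted p 0.00121), and the opposite-strand gene ITGA9-AS1, with which it shares 535 exon bases, fell by 1.32. The 5 genes of leukocyte integrins had few counts and did not pass the filter, with at most 15 counts in a library for ITGB2, 3 for ITGAL, 1 for ITGAM, 1 for ITGAX and 3 for ITGAD. ITGA4, ITGA8 and LAMA4 had 0 counts, and with ITGA10, ITGA11, ITGB3, LAMA1 and LAMB4 this made 13 of the 38 members that did not pass the filter.

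Finally, 73 other genes of adhesion were examined in 6 lists by role. Of these, 58 were tested, 20 were called lower, 20 higher and 18 not called, with a median log2 fold change of 0.01, whereas the median of the integrin and laminin genes themselves was -0.45. After the GC and length correction 42 of the 58 were called. Their median was then 0.08, and that of the integrin and laminin genes was -0.35. Over all 18243 genes tested, 29.9% were called lower and 29.2% higher, 59.1% in all. The counts of calls per list below stand beside these shares, and a call by itself was common. Of the 5 hemidesmosome partners, 4 were tested, 2 lower and 2 higher. PLEC, which encodes plectin, the link from ITGB4 to keratin filaments, fell from 1754 ± 67.3 to 1022 ± 44.5 CPM (SD, n = 3), with a log2 fold change of -0.78, and DST, the other linker of this kind, changed by -0.32. COL7A1, the collagen of the anchoring fibrils beneath, rose by 0.86 and CD151, a tetraspanin bound to laminin receptors, was called higher by 0.12. After the GC and length correction CD151 was no longer called (0.093, edgeR adjusted p 0.0563), which left 1 gene higher, and DST was at -0.15. Among 29 focal adhesion linkers and kinases, 28 were tested, and 6 were lower, 11 higher and 11 not called (median 0.01). The lowest were PTK2B (-0.76), PARVB (-0.42) and LIMS1 (-0.38), and the highest were FERMT3 (1.43), TLN2 (1.09) and TNS1 (0.78), which all 3 had low levels, at 1.35, 6.15 and 5.51 CPM in shRBM39.

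Of 11 other basement membrane genes, 7 were tested, 4 lower, 1 higher and 2 not called. HSPG2, which encodes perlecan, changed by -0.57, COL4A2 by -0.34 and AGRN by -0.32 (-0.21 after the GC and length correction). COL4A1 rose by 0.93, from 0.830 to 1.57 CPM. COL18A1 was not called in the main test, but after the correction it was called higher (0.15, edgeR adjusted p 0.00097). Of 15 other integrin ligands, 8 were tested. FN1 and CDH1 were the 2 lower ones, and 4 were higher, led by ICAM1 (1.03), TNC (0.86) and COL1A1 (0.81). Among 6 laminin receptors that are not integrins, SDC1 rose from 55.0 ± 0.829 to 105 ± 6.14 CPM (SD, n = 3) with a log2 fold change of 0.93. MCAM changed by 0.67, SDC4 by -0.64 and BCAM by -0.46. The other 2 were not called, although DAG1 was called higher after the GC and length correction (0.10, edgeR adjusted p 0.0406). Of 7 genes around the activation of TGF-beta by integrins, 5 were tested and 4 were lower, with TGFB2 at -1.08, LTBP2 at -0.99 and LTBP3 at -0.43. The edgeR adjusted p of every gene called in the 6 lists was at most 0.0437.

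The splicing table held 8 records of genes in these lists. Among the hemidesmosome and focal adhesion genes, ILK and PLEC had called records with 20 reads or more in every library. Exon 3 of ILK (166 coding bases), the kinase-like adaptor that binds the tails of beta chains, was at levels 0.502, 0.546 and 0.520 in the libraries of group 1 and 0.743, 0.798 and 0.759 in those of group 2 (edgeR adjusted p 9.25e-08). Exon 31 of PLEC, a long exon of 3381 coding bases that encodes its rod, was at 0.663, 0.721 and 0.776 in the libraries of group 1 and 0.320, 0.342 and 0.394 in those of group 2 (edgeR adjusted p 1.81e-07). The mean difference of 0.368 rests on the length correction, since levels from the read numbers alone differed by 0.050, and group 1 had 6, 4 and 3 skipping reads. The exon of ILK was thus less included in group 1, as exons 19 of ITGB4 and 13 of ITGB7 were, and that of PLEC more included.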

How the data were processed

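For the 6 libraries the authors deposited gene counts, not normalized, and RPKM values, made from stranded mRNA libraries with unique identifiers. The submitters' processing notes name Trimmomatic 0.36, STAR 2.5.3a, featureCounts of Subread 1.5.1, edgeR 3.12.1 and GRCh38. The annotation release, strand setting, handling of multi-mapped reads and collapsing of identifiers are not given in the sources used here, and they bear most on overlapping genes. The deposited RPKM values were used only to order levels between genes. The authors also deposited inclusion levels, each a fraction from 0 to 1, with inclusion and skipping read counts from rMATS (version not given in the sources used here). That table also holds the authors' p-values, FDR and differences, which were not used.

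Groups and replicates came from the sample titles. Columns named NC were read as shCtrl, the only control. The main test was the quasi-likelihood test of edgeR 4.0.16 under R 4.3.3, with its filterByExpr filter, TMM factors, no covariate beside the group, and Benjamini-Hochberg adjustment at 0.05 over all 18243 genes. The biological coefficient of variation was 0.035. CPM values carry the TMM factors, and standard errors were derived from the fold change and its F statistic. No replicate pair agreed within sampling noise (chi-square per degree of freedom 2.11 to 4.21), so each library counted once. Same-numbered replicates of the groups did not deviate together (correlations 0.006, -0.046 and 0.037 over 12058 genes). In the splicing table, inclusion against skipping reads were fitted in edgeR with the library as a block, over the 1582 listed records. Listed levels were recomputed from the reads within 0.0005. Exons were placed with GENCODE 44, and their sequences were read from the GRCh38 reference. Starts are given counting from 1. Exact permutation tests were two-sided.

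Members, gene lists and tests were chosen with earlier results of these data known. Members with a mean of at least 1 CPM were named with values, by library from 5 CPM or an absolute log2 fold change of 0.5. In each list of other genes up to 3 called genes in each direction were named. The marker genes, LAMC3, LAMA1, DAG1, COL18A1 and the genes that overlap members were named after their values were seen. Splicing records of other genes were named when the edgeR fit called them with at least 20 reads in every library, in place of the FDR first foreseen. The record of ITGB1BP1 was an exception: it was named for its gene, was not called and had as few as 16 reads in a library. Alternatives were DESeq2 1.42.0, other scalings and filters, limma-trend (limma 3.58.1) on log2(RPKM + 1) and log2(RPKM + 0.1), a replicate block, each library left out, the stricter threshold of 0.01 and edgeR's test for changes beyond 0.5 on the log2 scale. The GC and length correction was chosen after seeing the data, and GC content was known for 25 of 25 tested members. The fits were tested on simulated data. No protein sequence was analysed here. Results of 2 genes, and the sequence and position of 1 exon, are not reported here.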

Additional observations from a re-analysis of the deposited data

How the results depend on the processing

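Of the 25 tested integrin and laminin genes, 22 were called. The alternatives called 20 to 23, except that 7 (6 lower, 1 higher) were called when the test asked for a change beyond 0.5 on the log2 scale, where 11 of the adhesion genes in the lists were called in place of 40. The cause of the drop is the stricter test itself, since the fold changes are the same. Leaving out each library in turn gave 21 to 23 member calls, 37 to 41 calls in the lists and a log2 fold change of RBM39 from -0.70 to -0.63. With the replicate number as a block, 22 members and 39 list genes were called and RBM39 was at -0.67, but the numbers did not pair the samples. The correction for GC content and length gave 22, 42 and -0.58. Over 373 comparisons of the 25 genes with their alternatives, 359 kept direction and side of the threshold, 11 lost the call (7 of them for LAMA3), 2 gained it (ITGB6, at -0.49 with library totals alone and -0.48 without shCtrl replicate 2) and 1 changed sign (ITGB8, 0.026 without shRBM39 replicate 1, in a range from -0.32 to 0.026). The causes were not tested. LAMA3 also lost its call with upper-quartile scaling (0.11), and with limma-trend (0.02 and 0.02) on log2(RPKM + 1) and log2(RPKM + 0.1). Of the 3 called splicing records, 1 was tested and called with at least 20 reads in every library, and 2 were called when any value was left out. The comparison by FDR was not run because that column holds the authors' own comparison, and no paired analysis of the splicing records was possible because the table does not tie its values to numbered libraries. Counts limit LAMC3, LAMA1 and the records of LAMB1 and ITGB7 exon 2 most.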

Other observations

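Rows with names close to the members, which the rule did not take, gave these values. ITGB1BP1, which encodes a protein that binds the tail of ITGB1 and limits its activation, had 799, 798 and 747 counts in shCtrl and 1089, 963 and 1091 counts in shRBM39, a log2 fold change of 0.56 (SE 0.05, edgeR adjusted p 3.06e-12). Its exon 3 (79 coding bases) had a splicing record with mean inclusion levels of 0.599 in group 1 and 0.764 in group 2, which was not called (edgeR adjusted p 0.144). ITGB3BP, a centromere protein gene named for its binding to ITGB3, had 531, 550 and 550 counts in shCtrl and 602, 500 and 600 counts in shRBM39, a log2 fold change of 0.20 (SE 0.06, edgeR adjusted p 0.00355). The pseudogene row ITGB1P1 had 45, 51 and 43 counts in shCtrl and 28, 21 and 16 counts in shRBM39 (-0.96, SE 0.22, edgeR adjusted p 0.000336), and its reads can be shared with ITGB1. ITGA9-AS1, antisense to ITGA9, had 95, 84 and 90 counts in shCtrl and 27, 34 and 37 counts in shRBM39 (-1.32, SE 0.17, edgeR adjusted p 3.47e-08). The opposite-strand rows AC078883.3, AC078883.4 and AC093818.1, which share 125, 174 and 52 exon bases with ITGA6, changed by -0.30, -0.38 and -0.30, each called lower.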
